A study of Mus musculus with 24 samples.

Results

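The receptors described here are 9 genes of the CD300, LILR and PILR families (Cd300a, Cd300lf, Cd300c2, Cd300lb, Cd300ld, Lilrb4a, Lilr4b, Lilra6 and Pilra), followed through 24 mouse aortas in an RNA-seq study of renal failure, sex and the Bmp2 gene. The 9 were taken by name, all 9 being present among the 32561 genes of the deposited table. They were listed with their higher levels in Kl/Kl aortas already known, so what is given on that comparison, model calls included, is a description that supports nothing. The mice were congenic on 129S1/SvlmJ, 44 to 53 days old, with 4 animals in each of 6 groups and 1 polyA library per aorta. Kl/Kl animals are homozygous for a recessive Klotho mutation and have renal failure. Controls, with healthy kidneys, are heterozygous (Klotho+/Kl), except that 1 Bmp2+/+ male control is Klotho+/+. Each Klotho class was sampled in 3 settings, namely Bmp2+/+ males, Bmp2+/+ females, and males carrying 2 copies of the ∆UCS allele of Bmp2 (∆UCS/∆UCS). The Klotho mutation acts throughout the body and RNA came from whole aortas, so no cell type was isolated. Because the RNA is bulk, fewer cells of a type and less RNA per cell cannot be told apart.

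Paired receptors are sets of very similar immunoglobulin-type surface proteins of myeloid cells, some inhibitory and some activating. Inhibitory members carry immunoreceptor tyrosine-based inhibitory motifs (ITIMs) in a long cytoplasmic tail and recruit phosphatases such as SHP-1. Activating members have short tails and signal through adaptors such as DAP12, encoded by Tyrobp, or the Fc receptor gamma chain, encoded by Fcer1g. CD300 proteins bind lipids, among them phosphatidylserine on dying cells. The families arose by local duplication, so copies are alike and lie side by side.

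In 2 libraries Xist and Ddx3y went against the labelled sex, male Bmp2+/+ Kl/Kl replicate 1 and female Bmp2+/+ Kl/Kl replicate 2. Means and tests leave out these 2 libraries (22 kept); their own values, and the tests with all 24 libraries as labelled, are given beside them. In the male library 6 of the 9 receptors lay within the range of the Bmp2+/+ male controls, and in the female library 8 of 9 lay within that of the female controls. Libraries held an estimated 20590270 to 61096534 reads in genes. Smooth muscle markers (Myh11, Acta2, Tagln, Cnn1) summed to 72.3 to 622 TPM in each kept library, as an aorta should show. TPM here divides by the genomic span of a gene, introns included, so levels are compared between libraries but not between genes.

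Each of the 9 receptors had a higher mean in Kl/Kl aortas than in controls in all 3 settings, and the ratio of means was lowest for Pilra in each. Group means differed 4.80- to 29.2-fold in Bmp2+/+ males for the 7 genes that passed the filter on low values, and 3.86-fold for Cd300lf and 2.74-fold for Pilra. In females the ratios ran from 4.78 for Pilra to 41.1 for Cd300lb, and in ∆UCS males from 2.00 for Pilra to 14.6 for Cd300c2. As labelled, the ratios ran from 2.36 for Pilra to 22.1 for Lilr4b in Bmp2+/+ males and from 3.91 for Pilra to 31.0 for Cd300lb in females. The order of group means was female, then Bmp2+/+ male, then ∆UCS male among Kl/Kl aortas for 8 of the 9, Cd300lf being the exception.

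**Figure D1:**
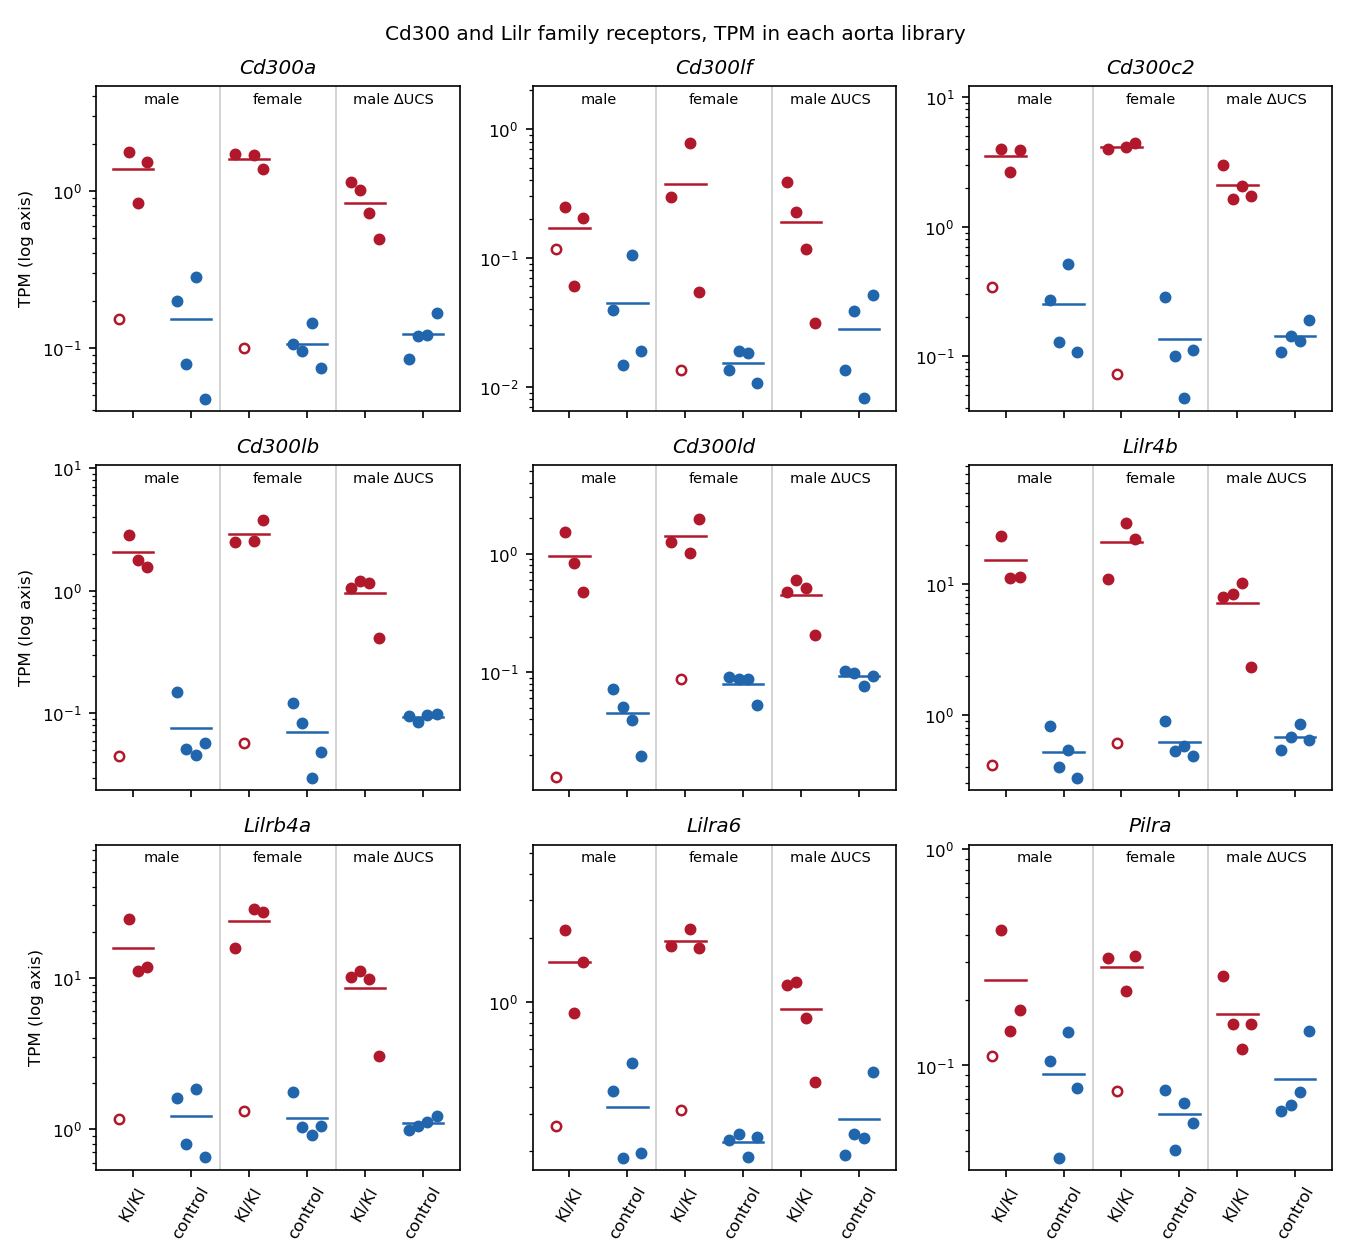
TPM of each receptor (log axis) in each aorta library, Kl/Kl (red) left of control (blue) for Bmp2+/+ males, Bmp2+/+ females and ∆UCS males; lines are means of the kept libraries and open circles the 2 libraries left out. The filled red points lie above the blue ones except for Cd300lf in both male settings and for Lilra6 and Pilra in ∆UCS males, and the open circles lie near the controls.

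The inhibitory receptors are taken first. Lilrb4a (ENSMUSG00000112148, mm39 chromosome 10, 51367052 to 51372708, plus strand), also known as gp49B, is an ITIM receptor of macrophages, mast cells and other myeloid cells. It was 24.3, 11.1 and 11.7 TPM in Kl/Kl Bmp2+/+ males, against 1.59, 0.795, 1.84 and 0.650 TPM in their controls. In females it was 15.8, 28.5 and 27.1 TPM in Kl/Kl, against 1.75, 1.03, 0.907 and 1.05 TPM in controls. Among ∆UCS males it was 10.1, 11.2, 9.79 and 3.02 TPM in Kl/Kl, against 0.986, 1.04, 1.12 and 1.23 TPM in controls. The groups did not overlap in any of the 3 settings, and the Kl/Kl ∆UCS library at 3.02 TPM, replicate 4, stood well below the other three. The 2 libraries left out held 1.16 TPM (male) and 1.32 TPM (female), inside the control ranges.

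Cd300a (ENSMUSG00000034652, chromosome 11, 114780867 to 114795481, plus strand), an ITIM receptor for phosphatidylserine and phosphatidylethanolamine, was 1.77, 0.845 and 1.52 TPM in Kl/Kl Bmp2+/+ males, against 0.199, 0.0791, 0.284 and 0.0475 TPM in controls. In females it was 1.71, 1.69 and 1.37 TPM in Kl/Kl, against 0.107, 0.0956, 0.144 and 0.0749 TPM in controls. In ∆UCS males it was 1.13, 1.02, 0.729 and 0.493 TPM in Kl/Kl, against 0.0850, 0.119, 0.122 and 0.166 TPM in controls. These ranges were also apart in each setting. The libraries left out held 0.154 TPM (male) and 0.101 TPM (female), inside the control ranges.

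Cd300lf (ENSMUSG00000047798, chromosome 11, 115007040 to 115024819, minus strand), an ITIM receptor and in mice the entry receptor of murine norovirus, varied widely within groups. In Kl/Kl it was 0.249, 0.0600 and 0.205 TPM in Bmp2+/+ males, 0.295, 0.781 and 0.0539 TPM in females and 0.386, 0.229, 0.118 and 0.0311 TPM in ∆UCS males. Controls ranged from 0.0146 to 0.105 TPM in Bmp2+/+ males, from 0.0107 to 0.0189 TPM in females and from 0.00814 to 0.0518 TPM in ∆UCS males. The groups overlapped in both male settings and were apart in females. The male library left out, at 0.117 TPM, lay within the Kl/Kl range, and the female one, at 0.0136 TPM, within the control range. It rested on 6 to 467 estimated reads per library, and its whole span lies inside Rab37 on the opposite strand, where the use of strand in counting is not given in the sources used here. Rab37 had 13 to 572 estimated reads in the kept Kl/Kl libraries and 7 to 174 in the controls.

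Pilra (ENSMUSG00000046245, chromosome 5, 137820214 to 137834544, minus strand), an ITIM receptor for sialylated glycoproteins, showed the smallest gap. It averaged 0.249 ± 0.152 TPM (SD, n = 3) in Kl/Kl Bmp2+/+ males, against 0.0909 ± 0.0444 TPM (SD, n = 4) in controls. The lowest Kl/Kl library, at 0.144 TPM, lay just above the highest control, at 0.143 TPM. It averaged 0.285 ± 0.0552 TPM (SD, n = 3) in Kl/Kl females, against 0.0596 ± 0.0157 TPM (SD, n = 4) in controls. Among ∆UCS males it averaged 0.173 ± 0.0612 TPM in Kl/Kl, against 0.0866 ± 0.0387 TPM in controls (SD, n = 4 each), and there the groups overlapped with control replicate 4 at 0.144 TPM. The libraries left out held 0.110 TPM (male) and 0.0759 TPM (female), inside the control ranges. The Pilra span shares 671 bases with Zcwpw1 on the opposite strand, and the use of strand in counting is not given. Zcwpw1 had 86 to 334 estimated reads in the kept Kl/Kl libraries and 98 to 250 in the controls. Its part in the Pilra values was not tested. Neither Pilra nor Cd300lf reached 1 TPM in a kept library, so both stayed below the filter.

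Among the receptors taken as activating, Lilr4b (ENSMUSG00000112023, chromosome 10, 51356728 to 51362800, plus strand), also known as gp49A, is the neighbour and near-copy of Lilrb4a without its ITIM tail. It is placed here for that short tail, and its signalling was not tested. It was 23.3, 11.2 and 11.3 TPM in Kl/Kl Bmp2+/+ males, against 0.828, 0.397, 0.534 and 0.331 TPM in controls. In females it was 11, 29.5 and 22.3 TPM in Kl/Kl, against 0.905, 0.524, 0.574 and 0.486 TPM in controls. In ∆UCS males it was 8.03, 8.37, 10.3 and 2.30 TPM in Kl/Kl, against 0.539, 0.671, 0.853 and 0.639 TPM in controls. The lowest kept Kl/Kl value, 2.30 TPM, lay above the highest control, 0.905 TPM, and replicate 4 was again the lowest of the ∆UCS Kl/Kl libraries. The libraries left out held 0.416 TPM (male) and 0.609 TPM (female), inside the control ranges.

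Cd300c2 (ENSMUSG00000044811, chromosome 11, 114887547 to 114892707, minus strand), which pairs with DAP12 and the Fc receptor gamma chain, gave the steadiest Kl/Kl values. It was 3.98, 2.64 and 3.87 TPM in Kl/Kl Bmp2+/+ males, against 0.272, 0.128, 0.512 and 0.108 TPM in controls. In females it was 3.95, 4.08 and 4.40 TPM in Kl/Kl, against 0.285, 0.101, 0.0475 and 0.112 TPM in controls. Among ∆UCS males it was 3.00, 1.62, 2.04 and 1.73 TPM in Kl/Kl, against 0.109, 0.143, 0.132 and 0.192 TPM in controls. The libraries left out held 0.344 TPM (male) and 0.0736 TPM (female), inside the control ranges.

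Cd300lb (ENSMUSG00000063193, chromosome 11, 114813607 to 114825213, minus strand), a DAP12-coupled receptor of myeloid cells, averaged 2.06 ± 0.690 TPM (SD, n = 3) in Kl/Kl Bmp2+/+ males, against 0.0761 ± 0.0486 TPM (SD, n = 4) in controls. It averaged 2.92 ± 0.717 TPM (SD, n = 3) in Kl/Kl females, against 0.0711 ± 0.0405 TPM (SD, n = 4) in controls. In ∆UCS males it was 1.06, 1.2, 1.16 and 0.413 TPM in Kl/Kl, against 0.0945, 0.0858, 0.0976 and 0.0995 TPM in controls. No group of kept Kl/Kl libraries overlapped its controls. The male library left out, at 0.0447 TPM, lay just below the control range, and the female one, at 0.0574 TPM, inside it.

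Cd300ld (ENSMUSG00000034641, chromosome 11, 114873100 to 114880749, minus strand), which couples to the Fc receptor gamma chain, was 1.54, 0.831 and 0.478 TPM in Kl/Kl Bmp2+/+ males, against 0.0720, 0.0504, 0.0397 and 0.0197 TPM in controls. In females it was 1.26, 1.02 and 1.98 TPM in Kl/Kl, against 0.0910, 0.0873, 0.0883 and 0.0528 TPM in controls. Among ∆UCS males it was 0.476, 0.605, 0.511 and 0.207 TPM in Kl/Kl, against 0.103, 0.0974, 0.0756 and 0.0932 TPM in controls. The groups were apart in each setting, but controls rested on few reads, with 7 estimated reads in the lowest of them. The male library left out, at 0.0129 TPM, lay below the control range, and the female one, at 0.0873 TPM, inside it.

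Lilra6 (ENSMUSG00000030427, chromosome 7, 3911279 to 3918503, minus strand), annotated to the activating subfamily A and close in sequence to the PIR genes beside it, averaged 1.54 ± 0.645 TPM (SD, n = 3) in Kl/Kl Bmp2+/+ males, against 0.321 ± 0.16 TPM (SD, n = 4) in controls. It averaged 1.94 ± 0.227 TPM (SD, n = 3) in Kl/Kl females, against 0.222 ± 0.0232 TPM (SD, n = 4) in controls. In ∆UCS males it was 1.2, 1.24, 0.844 and 0.423 TPM in Kl/Kl, against 0.192, 0.24, 0.229 and 0.471 TPM in controls. There the groups met, the lowest Kl/Kl library lying below the highest control. The male library left out, at 0.261 TPM, lay inside the control range, and the female one, at 0.310 TPM, above it and below the other female Kl/Kl libraries.

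How far the members followed each other within a group differed. Over the 36 pairs of receptors, Pearson r ranged from 0.26 to 0.98 within the 10 Kl/Kl libraries (median 0.76) and from −0.12 to 0.83 within the 12 controls (median 0.51), a description, since both values of a point come from 1 library. Replicate 2 of the Kl/Kl Bmp2+/+ males was the highest of its 3 kept libraries for 9 of 9 receptors, and replicate 4 of the Kl/Kl ∆UCS males the lowest of its 4 for 7 of 9. Among the 3 kept female Kl/Kl libraries no such order showed, the highest value falling in replicate 1 for 1 receptor, in replicate 3 for 4 and in replicate 4 for 4. The 9 receptors summed to 8.78 TPM in replicate 4 of the Kl/Kl ∆UCS males, against 25.6 to 25.7 TPM in the other three. Such a sum mixes genes of unlike span and is mostly Lilr4b and Lilrb4a, at 2.30 and 3.02 TPM in replicate 4. Macrophage markers in this replicate summed to 257 TPM, against 324 to 402 TPM in the other three. In Kl/Kl Bmp2+/+ males, replicates 2, 3 and 4 held receptor sums of 60.6, 29.5 and 32.3 TPM. Their macrophage markers summed to 634, 362 and 625 TPM. In Kl/Kl females, replicates 1, 3 and 4 held receptor sums of 38.7, 70.5 and 63.0 TPM, beside macrophage sums of 636, 625 and 621 TPM. The part of macrophage content in this spread was not tested.

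Values of Lilr4b and Lilrb4a depend on how reads were shared between 2 nearly identical genes, a rule not given in the sources used here. Their coding sequences in GENCODE's GRCm38 annotation are 912 and 1008 bases long, and 874 of the 910 aligned bases (96.0%) are identical. The 5′ ends are shown because they carry the likeness that a read has to resolve, with capitals at the 5 of 150 bases that differ.
Lilr4b, coding bases 1 to 150: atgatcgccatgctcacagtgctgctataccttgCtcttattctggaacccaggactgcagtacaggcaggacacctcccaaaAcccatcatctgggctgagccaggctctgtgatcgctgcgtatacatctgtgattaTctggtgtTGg
Lilrb4a, coding bases 1 to 150: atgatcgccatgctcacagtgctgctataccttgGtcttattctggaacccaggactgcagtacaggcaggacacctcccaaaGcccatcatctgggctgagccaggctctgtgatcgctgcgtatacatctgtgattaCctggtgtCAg
The 3′ ends are shown because they hold the end of the Lilrb4a tail, which the coding sequence of Lilr4b lacks. Only the coding sequences were aligned, and capitals mark bases that differ or have no counterpart there. The last a of Lilr4b was aligned with the last a of Lilrb4a, so the a that completes taA is a capital. In Lilr4b 2 bases have no counterpart in Lilrb4a and shift the frame, so that its coding sequence ends at a taa that Lilrb4a reads through. The 98 bases without counterpart in the coding sequence of Lilr4b encode the end of the Lilrb4a tail. The Lilr4b transcript beyond its stop was not compared.
Lilr4b, coding bases 871 to 912: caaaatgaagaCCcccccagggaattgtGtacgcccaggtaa
Lilrb4a, coding bases 871 to 1008: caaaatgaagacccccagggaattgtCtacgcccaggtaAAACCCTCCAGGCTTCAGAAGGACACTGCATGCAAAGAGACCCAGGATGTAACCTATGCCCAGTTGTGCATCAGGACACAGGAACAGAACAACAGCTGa

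Of the 50-base words of the main Lilr4b transcript, 22.9% also occur in Lilrb4a, and of those of Lilrb4a 27.8% occur in Lilr4b. Another annotated gene, Gm49339, spans both copies on the same strand (chromosome 10, 51356708 to 51372710) and shares 100% of the words of Lilrb4a and 24.3% of those of Lilr4b. Gm49339 has its own row in the table, with 342 to 784 estimated reads in kept Kl/Kl Bmp2+/+ males and 8 to 48 in their controls, 1025 to 1260 and 2 to 48 in females, and 79 to 466 and 38 to 78 in ∆UCS males. The ratio of Lilr4b to Lilrb4a TPM, compared here between libraries, was 0.976 ± 0.0264 (SD, n = 3) in Kl/Kl Bmp2+/+ males, against 0.454 ± 0.110 (SD, n = 4) in controls. It was 0.851 ± 0.173 (SD, n = 3) in Kl/Kl females, against 0.530 ± 0.0725 (SD, n = 4) in controls. Among ∆UCS males it was 0.839 ± 0.141 in Kl/Kl, against 0.618 ± 0.110 in controls (SD, n = 4 each), where the ranges overlapped (0.750 to 1.05 against 0.520 to 0.763). The part of read sharing in these ratios was not tested.

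**Figure D2:**
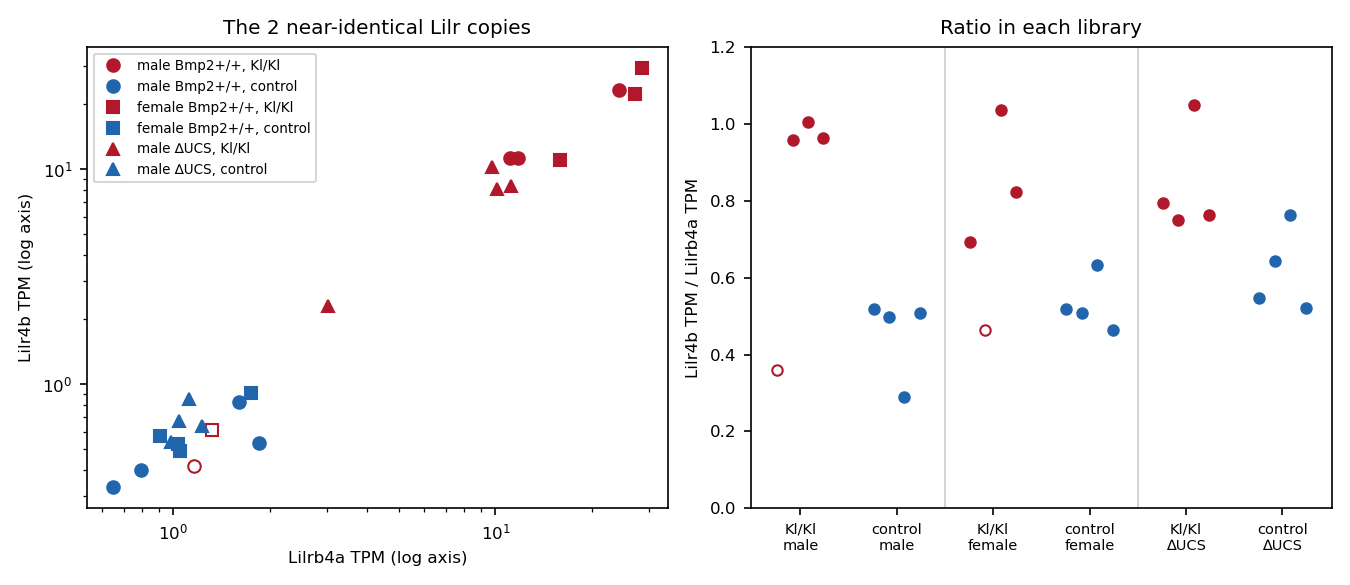
Left, Lilr4b against Lilrb4a TPM in each library (both axes log); right, their ratio by group with Kl/Kl left of control, open symbols being the 2 libraries left out. Kept Kl/Kl libraries lie at ratios of 0.694 to 1.05 and controls at 0.290 to 0.763.

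Lilra6 shares 28.4% of its 50-base words with other genes, 18.7% with Pirb and 16.9% with Pira2. Of the others, Cd300c2 shares 8.0% with Cd300a, Cd300lf shares 5.18% with Cd300ld, Pilra shares 4.67% with Pilrb1, and Cd300lb shares 0 words with another gene.

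Promoters are shown for the receptors that hold the letters AGGAAGT, a core bound by ETS-family factors such as PU.1, the regulator of myeloid genes. The motif was chosen after the promoters had been read, and both strands were searched over the 250 bases before the start site given by RefSeq (GRCm38.p6), which has an entry for 8 of the 9 receptors, not for Lilrb4a. It occurs in 3 of these 8, against 7.80% of 27025 promoters of the same length (2109). The matches, in capitals, begin 26 bases before the start site of Cd300c2, 142 and 38 before that of Cd300ld and 149 before that of Lilra6, each on the strand of the gene. Cd300a, Cd300lb, Cd300lf, Lilr4b and Pilra have no such letters in this window.
Cd300c2 (chr11:115001881-115002130, minus strand): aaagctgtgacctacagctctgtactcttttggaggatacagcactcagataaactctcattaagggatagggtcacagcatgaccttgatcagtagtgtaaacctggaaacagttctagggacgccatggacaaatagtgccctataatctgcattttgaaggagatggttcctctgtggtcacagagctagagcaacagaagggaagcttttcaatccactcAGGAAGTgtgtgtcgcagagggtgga
Cd300ld (chr11:114989887-114990136, minus strand): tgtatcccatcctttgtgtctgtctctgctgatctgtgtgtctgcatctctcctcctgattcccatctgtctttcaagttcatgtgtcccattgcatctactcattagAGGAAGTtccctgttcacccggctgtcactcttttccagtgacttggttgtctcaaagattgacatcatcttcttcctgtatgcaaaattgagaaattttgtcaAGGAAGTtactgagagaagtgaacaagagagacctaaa
Lilra6 (chr7:3915502-3915751, minus strand): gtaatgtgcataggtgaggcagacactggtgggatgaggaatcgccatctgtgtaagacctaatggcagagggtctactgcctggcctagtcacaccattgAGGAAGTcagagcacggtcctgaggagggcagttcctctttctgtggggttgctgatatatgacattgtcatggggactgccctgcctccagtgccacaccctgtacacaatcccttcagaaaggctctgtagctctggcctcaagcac

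The fit across all genes used log2(TPM + 1) for 9861 genes with at least 1 TPM in at least 4 of the 22 libraries, a scale that understates the change of low genes. Of the 9 receptors 7 passed, and 6 of these reached 1 TPM in Kl/Kl libraries alone, the exception being Lilrb4a with 8 control libraries at that level. Choice and filter thus fixed a difference in these receptors beforehand, and nothing is read from the calls. Limma called 7 of 7 higher in Kl/Kl Bmp2+/+ males, 7 of 7 in Kl/Kl females and 5 of 7 in Kl/Kl ∆UCS males, where 1.04%, 2.61% and 0.537% of all genes tested were called higher. When the 2 libraries were put back under their labels, 0 of 7 receptors and 0 of 9933 genes were called in each setting. Neither of them is a ∆UCS library, but the fit shares its estimate of spread over all groups. In ∆UCS males the Lilr4b difference thus stayed at 2.16 while its SE went from 0.33 to 0.70. On the log2(TPM + 1) scale the median difference of the 7 was 1.46, 1.86 and 0.82, beside medians over all genes of 0.09, 0.29 and 0.26. Median-of-ratios scaling, which moved the medians of all genes to −0.03, 0.01 and 0.06, gave 1.33, 1.69 and 0.72 for the 7. Over all genes it called 150 higher and 21 lower, 243 and 130, and 92 and 74 in the 3 settings (1.52%, 2.46% and 0.933% higher), against 103 and 6, 257 and 2, and 53 and 11 as deposited.

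Reads estimated from the table, which cover all 9 receptors and do not compress low genes, gave larger log2 differences. With limma voom, Lilr4b differed by 4.59 (SE 0.43) in Bmp2+/+ males, 4.5 (SE 0.43) in females and 2.89 (SE 0.38) in ∆UCS males. Cd300lb differed by 4.59 (SE 0.43), 4.88 (SE 0.42) and 2.87 (SE 0.39), and Cd300c2 by 3.72 (SE 0.43), 4.52 (SE 0.45) and 3.44 (SE 0.43), in the same order. Lilrb4a differed by 3.43, 3.8 and 2.44, Cd300a by 3.10, 3.39 and 2.36, and Cd300ld by 4.00, 3.49 and 1.81. Lilra6 differed by 2.05, 2.51 and 1.31, and Cd300lf by 1.84, 3.41 and 2.26 with SEs of 0.76 to 0.83. The smallest in each setting was Pilra, at 1.18, 1.68 and 0.60. By this fit 7, 9 and 7 of the 9 were called higher, where 1.37%, 2.07% and 0.717% of 22306 genes were. Cd300lf and Pilra were the exceptions in both male settings.

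**Figure D3:**
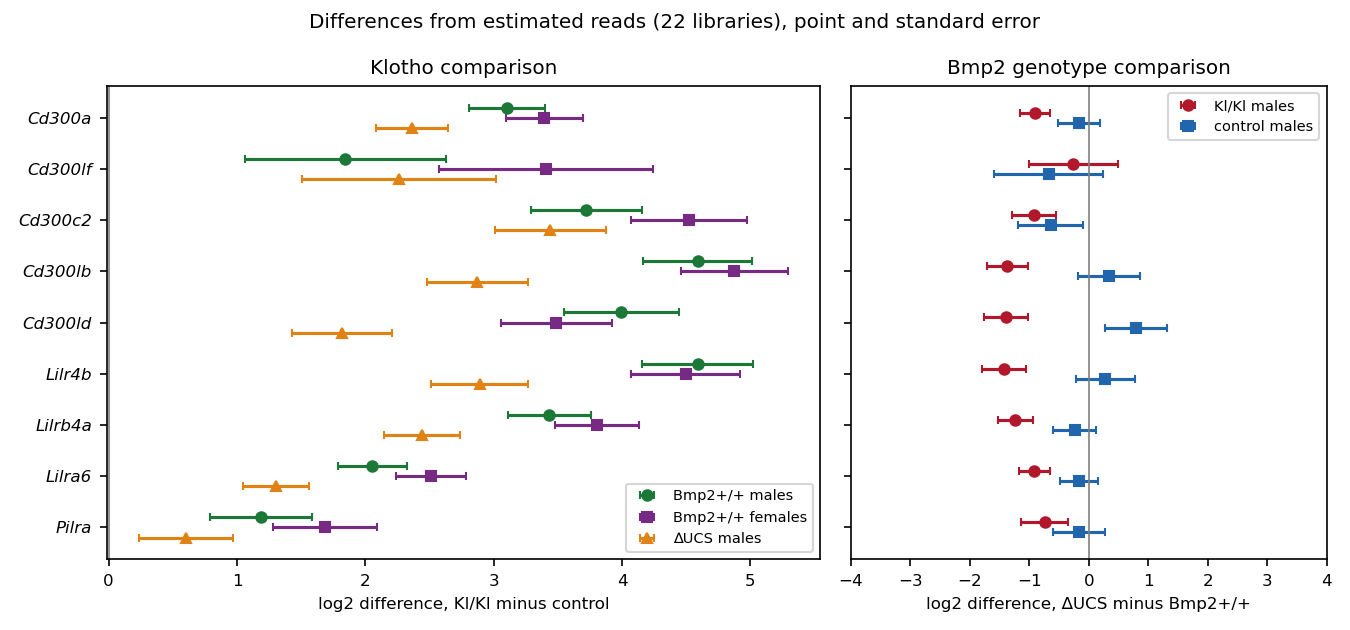
Log2 differences with standard errors from limma voom on estimated reads, 22 libraries: Kl/Kl minus control by setting (left) and ∆UCS minus Bmp2+/+ males within Kl/Kl and within controls (right). The Klotho differences run from 0.60 for Pilra in ∆UCS males to 4.88 for Cd300lb in females, and the ∆UCS points for Kl/Kl males lie at −0.26 to −1.42.

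Without the 2 libraries, Kl/Kl values lay wholly above control values for 8 of 9 receptors in Bmp2+/+ males, 9 of 9 in females and 6 of 9 in ∆UCS males, against 5.77%, 28.3% and 8.2% of the genes tested. As labelled, these were 0, 1 and 6 of 9, against 0.781%, 11.8% and 8.2%.

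The second question, whether the Bmp2 genotype bears on the receptors, was not used to list them. The choice still touches it, since the receptors were known to be high in the Kl/Kl libraries compared here. Cd300ld passed the filter through 4 libraries, all Bmp2+/+ Kl/Kl, its highest ∆UCS value being 0.605 TPM. For Cd300ld the filter and this comparison are therefore not independent. In Kl/Kl aortas the 7 tested receptors were lower in ∆UCS than in Bmp2+/+ males, but limma called none after adjustment. On the log2(TPM + 1) scale Lilr4b differed by −1.16 (SE 0.37), with 7.24 ± 3.43 TPM (SD, n = 4) in ∆UCS and 15.2 ± 6.96 TPM (SD, n = 3) in Bmp2+/+ Kl/Kl males. Lilrb4a differed by −1.04 (SE 0.34), with 8.52 ± 3.71 TPM against 15.7 ± 7.43 TPM, and Cd300lb by −0.70 (SE 0.17), with 0.958 ± 0.368 TPM against 2.06 ± 0.690 TPM. Cd300c2 differed by −0.58 (SE 0.17), Cd300ld by −0.48 (SE 0.16), Lilra6 by −0.44 (SE 0.19) and Cd300a by −0.38 (SE 0.16). Group means in ∆UCS were 0.465 to 0.612 of those in Bmp2+/+ for these 7. Macrophage markers differed in the same direction, Lyz2 by −1.005 (SE 0.47), Cd14 by −0.94 (SE 0.36), Cd68 by −0.89 (SE 0.40) and C1qb by −0.54 (SE 0.42), none called by limma, with summed levels of 257 to 402 TPM in ∆UCS and 362 to 634 TPM in Bmp2+/+ Kl/Kl males. Their part in the receptors' difference was not tested.

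Each of the 7 had an unadjusted p under 0.05 in this comparison, from 0.00068 for Cd300lb to 0.0293 for Lilra6, where 1.73% of all genes tested were lower at that level. After adjustment over all genes limma called 0 of 7 and 0 of 9861, with 180 genes (1.83%) at an unadjusted p under 0.05, and voom called 0 of 22306. The 7 were measured in the same libraries, so they are not 7 independent observations. As labelled, 0 of 7 had an unadjusted p under 0.05 (0.896% of genes), the median difference being −0.38 instead of −0.58, and a fit of these 2 groups alone also gave 0 of 7 (0.395% of genes). The count was 2 of 7 without Bmp2+/+ Kl/Kl replicate 2, the highest of its group for all 9 receptors, where 2.78% of genes reached that level, and 7 of 7 without Bmp2+/+ Kl/Kl replicate 3, where 8.38% did. Within library set 1, which holds 2 of the Bmp2+/+ Kl/Kl libraries and all ∆UCS ones, Lilr4b differed by −1.2 and 4 of 7 had an unadjusted p under 0.05 (0.832% of genes). Values did not overlap for Cd300lb and Lilr4b, 2 of 9 receptors, against 1.06% of genes tested, and as labelled for 0 of 9 (0.172%).

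Below the filter, Cd300lf averaged 0.191 ± 0.153 TPM (SD, n = 4) in ∆UCS and 0.171 ± 0.0989 TPM (SD, n = 3) in Bmp2+/+ Kl/Kl males, a two-sided exact permutation p of 0.914. Pilra averaged 0.173 ± 0.0612 TPM (SD, n = 4) and 0.249 ± 0.152 TPM (SD, n = 3) in the same groups, an exact permutation p of 0.457. With 4 against 3 libraries this test cannot go below 0.0571. As labelled the exact p was 0.771 and 0.714.

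In control males the fitted differences between the Bmp2 genotypes, with the library set in the fit, lay between −0.34 (Lilrb4a, SE 0.34) and −0.04 (Lilr4b, SE 0.37) on the log2(TPM + 1) scale, with 0 of 7 at an unadjusted p under 0.05 (2.19% of genes) and limma adjusted p-values of 0.958 to 0.981. Lilr4b averaged 0.675 ± 0.131 TPM in ∆UCS and 0.522 ± 0.221 TPM in Bmp2+/+ controls (SD, n = 4 each), and Lilrb4a 1.09 ± 0.104 and 1.22 ± 0.585 TPM. The exact permutation p was 0.571 for Cd300lf and 0.8286 for Pilra, with a lowest possible value of 0.0286. Cd300ld was the single receptor without overlap, at 0.0756 to 0.103 TPM in ∆UCS and 0.0197 to 0.0720 TPM in Bmp2+/+ controls, where 0.203% of genes tested were wholly higher. For 3 receptors the sign differed between measures: Cd300ld, Lilr4b and Cd300lb had higher group means in ∆UCS controls and positive differences on estimated reads (0.79, SE 0.52; 0.28, SE 0.50; 0.35, SE 0.52), but fitted log2(TPM + 1) differences of −0.05, −0.04 and −0.06. No direction is given for them.

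The difference between the Klotho effects, ∆UCS minus Bmp2+/+ males, was below 0 for the 7 receptors on the log2(TPM + 1) scale. It was −1.12 (SE 0.48) for Lilr4b and −0.64 (SE 0.22) for Cd300lb, the 2 of 7 with an unadjusted p under 0.05, where 2.07% of genes were at that level. Limma called 0 of 7 (adjusted p = 0.954 for each), and as labelled 0 of 7 reached the unadjusted level (1.67% of genes). Median-of-ratios scaling gave 5 of 7, where 5.75% of genes were, and voom 4 of 9, where 8.54% were. The unadjusted count ranged from 1 to 7 when single libraries were left out, with 7 without Bmp2+/+ Kl/Kl replicate 3 (3.34% of genes) and 1 without Bmp2+/+ Kl/Kl replicate 2 (4.82%), ∆UCS Kl/Kl replicate 4 (5.06%) or ∆UCS control replicate 3 (1.67%). This difference and the comparison within Kl/Kl males use the same Kl/Kl libraries. The receptors were listed with their high levels in Kl/Kl known, so these counts are not free of the choice and nothing is read from them. Cd300ld, which passed the filter on TPM through Bmp2+/+ Kl/Kl libraries alone, is among the 5 of 7 and the 4 of 9.

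Between sexes, the 7 tested receptors were 0.19 (Cd300a) to 1.00 (Lilrb4a, SE 0.41) higher in female than in male Bmp2+/+ Kl/Kl aortas on the log2(TPM + 1) scale, and limma called 0 of 7. Cd300ld passed the filter through Bmp2+/+ Kl/Kl libraries alone, so its value is not independent of the filter. Cd300ld, Cd300lb and Lilrb4a had an unadjusted p under 0.05, where 1.72% of genes did in either direction. As labelled 0 of 7 did (1.58% of genes), and 0 of 7 also without female Kl/Kl replicate 4 (2.19%) or without the library set in the fit (1.55%). In controls the sexes differed by −0.08 to 0.29, with 0 of 7 at an unadjusted p under 0.05 (0.73% of genes). This scale understates differences at such low levels. On estimated reads Cd300ld was 1.54 (SE 0.50) higher in female controls, the 1 of 9 at an unadjusted voom p under 0.05 (2.21% of genes), and not called after adjustment. All female libraries are in library set 2, to which 1 kept male Kl/Kl library belongs. For the difference between the Klotho effects in females and males limma called 0 of 7, with 0 at an unadjusted p under 0.05 (1.43% of genes), or 3 without male Kl/Kl replicate 2 (3.21% of genes).

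Other cell types' markers were read beside these results. Macrophage markers (10 genes, among them Cd68, Csf1r, Cd14 and Lyz2) summed to 362 to 634 TPM in Kl/Kl Bmp2+/+ males and 39.98 to 196 TPM in controls. They summed to 621 to 636 and 47.7 to 82.6 TPM in females, and to 257 to 402 and 37.9 to 117 TPM in ∆UCS males. Limma called 3 of the 6 tested macrophage markers higher in Kl/Kl Bmp2+/+ males, 5 of them in females, and 3 of them in ∆UCS males. The 10 had reads in each group, none being at 0 throughout. Neutrophil markers summed to 11 to 92.6 TPM in Kl/Kl and 3.60 to 15.8 TPM in control Bmp2+/+ males, to 22.01 to 65.9 and 2.26 to 18.9 TPM in females and to 7.75 to 40.4 and 0.997 to 9.26 TPM in ∆UCS males, apart in females alone, with the granule genes Ly6g, Mpo, Elane and Camp under 10 estimated reads in the median library. Limma called Ltf, a neutrophil granule gene, higher in Kl/Kl females (3.15, SE 0.65). Platelet markers (3 genes) summed to 12.8 to 28.3 TPM in Kl/Kl and 3.85 to 11.6 TPM in control Bmp2+/+ males, to 17.2 to 34.4 and 4.06 to 8.19 TPM in females, and to 11.7 to 28.6 and 6.05 to 10.2 TPM in ∆UCS males, apart in each setting. Of these 3, Pf4 alone passed the filter, and it was called higher in Kl/Kl females (1.77, SE 0.36). Whether this sum stands for platelets was not tested. Mast cell markers overlapped between Kl/Kl and controls in each setting (3.13 to 20.4 against 3.68 to 9.07 TPM in Bmp2+/+ males), and the 3 eosinophil markers had median estimated reads under 10. B cell and T and NK cell markers overlapped in each setting and varied widely within groups. They summed to 1.12 to 57.8 and 0.514 to 26.2 TPM in control Bmp2+/+ males, and to 1.17 to 48.9 and 0.757 to 91.6 TPM in Kl/Kl ∆UCS males. Dendritic cell markers were just apart in females alone, at 0.709 to 2.81 TPM in Kl/Kl and 0.461 to 0.702 TPM in controls. Summed macrophage and platelet markers were thus higher in Kl/Kl without overlap in each setting, and neutrophil and dendritic cell markers in females. Their part in the receptors' differences was not tested.

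Relative to the macrophage markers the receptors differed among themselves. Per 1000 TPM of macrophage markers, Cd300c2 was 6.59 ± 0.616 in Kl/Kl (SD, n = 3) and 2.49 ± 0.645 in control Bmp2+/+ males (SD, n = 4). It was 6.61 ± 0.436 and 2.16 ± 1.02 in females and 6.37 ± 1.03 and 2.18 ± 0.521 in ∆UCS males, without overlap in any setting. Lilr4b was 28.6 ± 9.58 in Kl/Kl and 6.34 ± 3.13 in controls in Bmp2+/+ males, 33.5 ± 15.1 and 10.7 ± 1.02 in females, and 21.6 ± 9.63 and 10.8 ± 3.88 in ∆UCS males, where the ranges overlapped. Pilra went the other way, at 0.451 ± 0.195 in Kl/Kl and 0.958 ± 0.196 in controls in Bmp2+/+ males, 0.454 ± 0.0871 and 1.05 ± 0.275 in females, and 0.526 ± 0.129 and 1.25 ± 0.263 in ∆UCS males, again without overlap. Lilra6 was also lower per macrophage marker, at 2.79 ± 0.564 in Kl/Kl and 3.45 ± 0.867 in controls in Bmp2+/+ males. It was 3.09 ± 0.373 and 3.99 ± 0.897 in females and 2.76 ± 0.905 and 4.08 ± 0.699 in ∆UCS males, with overlap in each setting. Between Kl/Kl males, Cd300a stood at 2.53 ± 0.550 in ∆UCS and 2.52 ± 0.24 in Bmp2+/+, while Cd300lb stood at 2.88 ± 0.972 and 3.97 ± 1.32. These are descriptions, since the Klotho contrast chose the receptors.

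**Figure D4:**
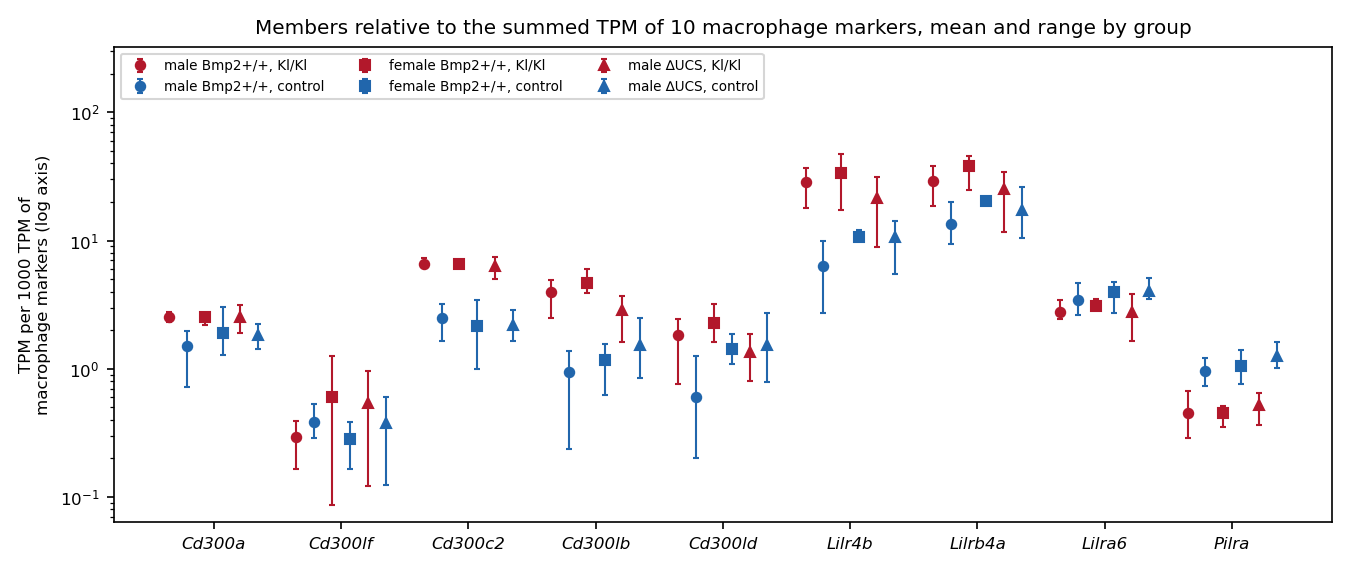
TPM of each receptor per 1000 TPM of 10 macrophage markers (log axis), group mean with the range of kept libraries, Kl/Kl red and control blue, for Bmp2+/+ males, Bmp2+/+ females and ∆UCS males. Red means lie above blue ones in each setting for Cd300a, Cd300c2, Cd300lb, Lilr4b and Lilrb4a. They lie below in each setting for Lilra6 and Pilra, and the order depends on the setting for Cd300ld and Cd300lf.

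Among the other genes of these families, 11 of 18 listed are in the table and 4 passed the filter. Pirb, the inhibitory PIR receptor, rose in Kl/Kl by 1.47 in Bmp2+/+ males and 1.97 in females on the log2(TPM + 1) scale, and in ∆UCS males differed by 1.04 (limma adjusted p = 0.0558). Pira2, an activating PIR receptor, rose by 1.21, 1.48 and 0.69 in the 3 settings. Cd300lg, the endothelial member of the CD300 family, averaged 5.19 ± 1.76 TPM among Kl/Kl Bmp2+/+ males (SD, n = 3) and 4.13 ± 1.4 TPM among their controls (SD, n = 4), with limma adjusted p-values of 0.721 to 0.903 over the 3 settings. Cd300ld3 differed by 0.24, 0.71 and 0.35 and was not called. The myeloid genes Cd300c and Cd300e had at most 18 and 13 estimated reads in a kept library. The list's median difference was 0.74, 1.1 and 0.52, beside 0.09, 0.29 and 0.26 over all genes.

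Of the 12 ITAM adaptors and kinases 3 passed the filter, and both signalling adaptors rose. Tyrobp averaged 13.3 ± 4.07 TPM among Kl/Kl Bmp2+/+ males (SD, n = 3) and 2.65 ± 1.75 TPM among their controls (SD, n = 4), and differed by 1.97, 2.80 and 1.91 in the 3 settings on the log2(TPM + 1) scale. Fcer1g differed by 1.95, 2.53 and 1.60, each called by limma. Hcst, encoding the adaptor DAP10, differed by 0.39, 1.04 and 0.91 and was not called. Of 5 tested ITIM phosphatases and adaptors limma called 0 in each setting, with medians of −0.08, 0.42 and 0.54. Ptpn6, which encodes SHP-1, differed by −0.08 (SE 0.58), 1.21 (SE 0.58) and 0.79 (SE 0.53). Its controls varied widely, from 0.290 to 5.43 TPM in Bmp2+/+ males.

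Of 7 tested ligands and partners reported for these receptors limma called 0 in each setting, with medians of 0.64, 1.09 and 0.60. Fn1, encoding fibronectin, which gp49B binds in mice, differed by 1.45 (SE 0.43), 1.45 (SE 0.43) and 0.89 (SE 0.40), and Apoe by 0.94, 1.39 and 1.37. Among 16 other paired receptors of myeloid cells, 4 were tested and 1, 2 and 1 rose. Trem2, a lipid-sensing receptor that signals through DAP12, rose by 2.08, 2.13 and 1.47, and the sialic acid receptor gene Cd33 rose by 1.31 in females. Sirpa and Siglecg were not called. These lists were drawn up with earlier results known, and with the 2 libraries put back under their labels limma called 0 genes of any list.

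The genes whose pattern was most like that of the receptors were taken by Pearson r between their log2(TPM + 1) and the mean standardised level of the 7 tested receptors over 22 libraries. They were Pira2 (0.992), Clec4e (0.988), C3ar1 (0.988), Itgax (0.986), Mmp12 (0.986) and Dpep2 (0.984). Kl/Kl and control libraries form separate clusters, which alone raises such values. Within the 10 Kl/Kl libraries r was 0.914 to 0.975 for these 6 genes, and within the 12 controls it was 0.362 to 0.730, with no test since the genes were chosen by the same measure. Pira2 shares sequence with Lilra6, one of the 7.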

How the data were processed

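PolyA RNA of 24 aortas was extracted with the miRNeasy Mini Kit and made into directional libraries, per the labels' protocols. The deposited table holds TPM, made by the authors; Partek and mm39 are named in the submitters' processing notes. How reads were aligned, which annotation release was used, and how strand and reads matching several genes were treated is not given in the sources used here. Each deposited TPM column sums to 482073 and no value is 0. Floors of the values follow genomic span, and reads were estimated by taking each floor as 0.0001 read: of 256602 values between 0.5 and 20 reads, 73.0% lay within 0.05 of a whole number. Depth was 20590270 to 61096534 reads. At a span of 20 kb, 1 TPM stood for 459 to 1130 reads. Mitochondrial genes took 40.2% to 61.2% of TPM. The 24 sample columns were used, leaving 0 unused.

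The main fit was limma 3.58.1 in R 4.3.3 on log2(TPM + 1), with eBayes and a trend, 6 group means and the library set (2 sets, read from the spelling of library names; all ∆UCS libraries in set 1, all female ones in set 2), in 22 libraries. P-values are two-sided, adjusted by Benjamini-Hochberg over all genes tested, threshold 0.05. Other settings were all 24 libraries, a pseudocount of 0.1, no filter, median-of-ratios scaling, limma voom on estimated reads (at least 10 in at least 4 libraries, mitochondrial genes left out), no library set, age, a replicate block, the compared groups by themselves, either library set by itself and leave-one-out of replicates. All 24 libraries with voom was added after seeing the data. Genes below the filter were tested with exact permutation tests (scipy). The fit was also run on simulated data with changes placed in genes of high control reads. That run does not cover genes with few control reads, such as these receptors. Members, lists and tests were chosen with earlier results of these data known. All 9 receptors are described; of other lists up to 4 tested genes with the largest mean absolute change are named, and the 6 genes most like the receptors, predicted genes and pseudogenes left out. The labels describe separate animals. Sequences are from RefSeq (GRCm38.p6) and GENCODE M21 (GRCm38), gene positions from the deposited table (mm39).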

Additional observations from a re-analysis of the deposited data

Results flagged for a closer look

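In groups of 4 libraries as labelled, 54 in all (9 receptors in 6 groups), 5 held a library far from the other three by Dixon's criterion, which chance gives in about 1 of 20 groups. Cd300c2 was 0.0736 TPM in female Bmp2+/+ Kl/Kl replicate 2, against 3.95 to 4.40 TPM in the others; this is one of the 2 libraries whose Xist and Ddx3y go against the label. Lilrb4a was 3.02 TPM in ∆UCS Kl/Kl replicate 4, against 9.79 to 11.2 TPM in the others. Cd300lb was 0.149 TPM in male Bmp2+/+ control replicate 1, against 0.0462 to 0.0579 TPM. Pilra was 0.144 TPM in ∆UCS control replicate 4, against 0.0616 to 0.0752 TPM. Cd300ld was low, at 0.0528 TPM, in female control replicate 4, against 0.0873 to 0.0910 TPM.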

How the results depend on the processing

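Numbers of receptors called higher in Kl/Kl were 7, 7 and 5 of 7 (Bmp2+/+ males, females, ∆UCS males). With all 24 libraries as labelled, also under median-of-ratios scaling or with voom, they were 0, 0 and 0. The ∆UCS libraries are the same in these fits, where the shared estimate of spread is wider. A fit of the compared groups alone, or of library set 1 alone, gave 3 in Bmp2+/+ males (0.142% and 0.122% of all genes called higher) and 3 in ∆UCS males (0.446% and 0.294%). Leaving out single replicates gave 5 to 7, 7 to 7 and 3 to 6, the lowest without ∆UCS Kl/Kl replicate 2 (0.355% of all genes). In these fits 0.345% to 4.06%, 1.35% to 5.05% and 0.355% to 1.36% of all genes were called higher. No receptor's called difference changed sign in these settings. Correlations of same-numbered residuals ran from −0.48 to 0.32, so replicate numbers were not read as pairs. Some Kl/Kl and control libraries of one age carry neighbouring library names across replicate numbers, and a pairing by name was not tested. A replicate block gave 7, 7 and 5, where 0.923%, 1.86% and 0.436% of all genes were called higher. In the comparisons of Bmp2 genotype, of sex and of Klotho effects limma called 0 receptors in each setting run. Precision is limited by low reads, the lowest library holding 3 estimated reads for Cd300ld, 6 for Cd300c2, 6 for Cd300lf and 8 for Cd300lb.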
